A study of Mus musculus with 4 samples.

Results

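The total knockout of monoacylglycerol lipase (MAGL, gene Mgll) was set against wild type in neurons from mouse tissue labelled hippocampus, with nuclei taken as neurons by 3 genes. Barcodes with at least 500 detected genes were kept. A nucleus was put in the excitatory pool with at least 2 UMIs (unique molecular identifiers, each standing for 1 captured RNA molecule) of Slc17a7, the vesicular glutamate transporter, and 0 of Gad1 and Gad2, the enzymes that make GABA. It was put in the inhibitory pool with at least 3 UMIs over Gad1 and Gad2 and at most 1 of Slc17a7. The rule took 16563 of the 40233 kept nuclei of both libraries, out of 60288 barcodes in the series. The excitatory pool held 4077 wild-type and 8138 knockout nuclei, and the inhibitory pool 984 and 3364. Summed counts of each pool were scaled to CPM, a gene's UMIs per fixed total of the pool's UMIs, and the knockout was divided by the wild type over 21301 genes listed in both files.

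The study made 4 single-nucleus RNA libraries, 1 for each genotype in the labels: "Wild type" (WT), "Total/global MAGL-KO" (tKO), "Astrocyte specific MAGL-KO" (aKO) and "Neuron specific MAGL-KO" (nKO). The WT and tKO libraries are compared here, and values of the aKO and nKO libraries, pooled by the same rule, are given beside named genes. The labels give hippocampus as the tissue of all 4, and markers of striatum and thalamus among the inhibitory nuclei are described below. The deleted part of Mgll, the promoter or Cre behind the restricted knockouts, and the age, sex, strain and number of animals are not stated in the labels. With 1 library per genotype there was no replicate and no test. A gene is called higher or lower where the ratio passes 1.5-fold among genes with at least 100 UMIs over both libraries. The 95% intervals are exact conditional binomial ones and cover counting error only, since nuclei of 1 library are not replicates.

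MAGL is a serine hydrolase that cleaves 2-arachidonoylglycerol (2-AG), the most abundant endocannabinoid of the brain, into glycerol and arachidonic acid. Neurons make 2-AG on demand after calcium entry or receptor activation through diacylglycerol lipase, and it travels back across the synapse to CB1 receptors (Cnr1), where it lowers transmitter release. Loss of MAGL is known to raise 2-AG and to lower arachidonic acid and prostaglandins in brain, and lasting CB1 activation is known to desensitise the receptor.

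The libraries differed in ways that touch every result below. The tKO excitatory nuclei were shallower than the WT ones, with a median of 7659 against 11002 UMIs, as were the inhibitory nuclei, with 6786 against 10056. Scrublet called 30.9% of tKO and 4.37% of WT excitatory nuclei doublets, and 31.7% and 3.05% of inhibitory ones. By Xist and Y-linked genes the tKO pools were male, with 1 female nucleus among 8138 and 0 among 3364 (which allows up to 0.0892%), whereas 48.8% of WT excitatory and 53.4% of WT inhibitory nuclei were female. The libraries shared 430 barcodes, of which 52 were excitatory and 2 inhibitory in both. Slc17a7 stood at 324 CPM (WT) and 370 CPM (tKO) in the excitatory pool, and at 4.60 and 12.5 CPM in the inhibitory pool. It sets the pools at fixed UMI limits and depth differed, so these values were not read as a difference in expression. At the edge of the rule, 1281 WT and 3687 tKO nuclei held exactly 2 Slc17a7 UMIs, and 1275 and 5465 held exactly 1 and stayed out. For the inhibitory pool 126 WT and 945 tKO nuclei held exactly 3 Gad UMIs, and 176 and 1284 held exactly 2 and stayed out. Markers of CA1 pyramidal cells summed to 3681 and 3559 CPM in the excitatory pool and those of dentate granule cells to 1599 and 1428 CPM, with no marker of either list at 0 in either library.

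Transcripts of the targeted gene were present in both tKO pools. Mgll (chr6:88724412-88828360, + strand) was counted at 102 CPM in WT, 77.1 in tKO, 105 in aKO and 104 in nKO excitatory nuclei, from 4982 and 5314 UMIs in the WT and tKO libraries. The tKO library was thus the lowest of the 4, 1.32-fold below WT, with a log2 ratio of -0.40 (-0.45 to -0.34), which does not pass 1.5-fold. Inhibitory nuclei held Mgll at 122, 112, 133 and 119 CPM in the same order, a log2 ratio of -0.13 (-0.23 to -0.03). Counts over the whole gene cannot check a label whose deleted part is not named. Across the alternatives of processing the excitatory value lay between -0.55 and -0.31 and the inhibitory one between -0.21 and 0.19.

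Of the other enzymes that degrade endocannabinoids 1, Naaa, was called. Among excitatory nuclei Abhd6, a membrane hydrolase of 2-AG, had a log2 ratio of -0.03 (-0.08 to 0.03), and Abhd12, a hydrolase of lysophosphatidylserine and of 2-AG, had -0.17. Faah, the hydrolase of anandamide, had 0.07. Naaa, an acid amidase of N-acylethanolamines, was low and called higher, at 3.30, 5.11, 4.99 and 4.93 CPM in WT, tKO, aKO and nKO. WT was the lowest library there, and the log2 ratio of 0.63 (0.36 to 0.91) was 0.47 with cluster makeup held, a measure explained below. Of the 5 degrading enzymes tested, 1 was thus higher and 0 lower in the excitatory pool, where 2.21% of all 15255 tested genes were called higher and 4.77% lower. The inhibitory background was 5.33% called higher and 5.34% lower of 12765 tested genes, and 0 of the 5 were called there.

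Genes of endocannabinoid synthesis were not called in either pool, 0 of 7 tested in each. Dagla, the lipase that makes most 2-AG in brain, stood at 81.2 CPM in WT, 84.6 in tKO, 100 in aKO and 97.6 in nKO excitatory nuclei, and its paralog Daglb at 31.9, 32.1, 31.1 and 35.0 CPM. Napepld, the phospholipase of anandamide precursors, had the lowest ratio of this list in the excitatory pool. It was counted at 37.6, 27.3, 32.0 and 28.8 CPM, with WT the highest library, a log2 ratio of -0.46 (-0.56 to -0.37) and -0.37 with makeup held. Napepld had an inhibitory ratio of -0.06 (-0.31 to 0.19).

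The CB1 receptor gene went different ways in the pools, by less than 1.5-fold in each. Cnr1 is most abundant in the interneurons that also make cholecystokinin. It stood at 57.8 CPM in WT, 66.8 in tKO, 70.3 in aKO and 59.3 in nKO excitatory nuclei, a log2 ratio of 0.21 that was 0.04 with makeup held. In inhibitory nuclei it stood at 365, 315, 318 and 383 CPM, a log2 ratio of -0.21 (-0.27 to -0.16) and -0.23 with makeup held, so that the tKO and aKO libraries lay below WT and the nKO library above. Cnrip1, a protein that binds the tail of CB1, had ratios of -0.02 and -0.10 in the excitatory and inhibitory pools. Gpr18, a receptor proposed for N-arachidonyl glycine, was the 1 gene called lower of 3 tested in the receptor list in the excitatory pool, at 4.73, 2.00, 5.01 and 3.96 CPM, a log2 ratio of -1.24 (-1.56 to -0.93). Gpr18 lies wholly inside Ubac2 on the other strand, a gene at 114 and 101 CPM in WT and tKO, and the account of overlapping genes below bears on it.

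**Figure D1:**
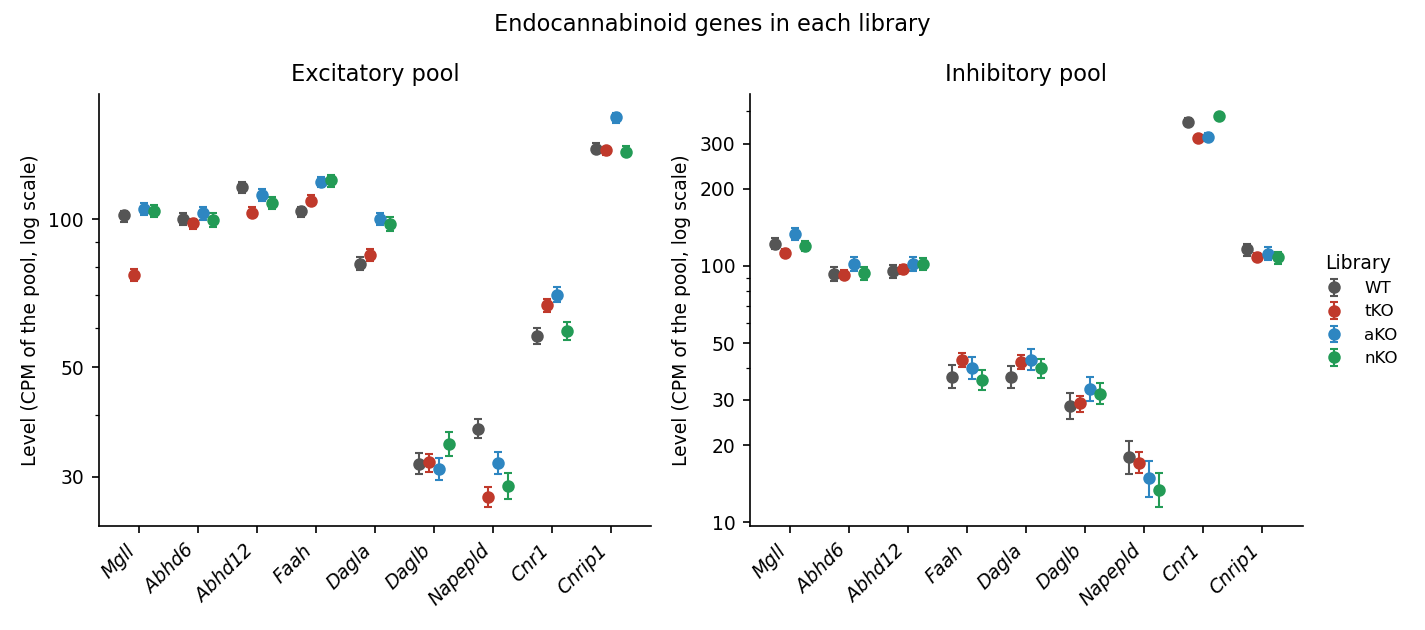
Levels of 9 endocannabinoid genes in the excitatory (left) and inhibitory (right) pool of each of the 4 libraries, in CPM on a log scale; bars are 95% Poisson intervals of the counts. Mgll of the tKO library lies below the other 3 libraries in the excitatory pool (77.1 against 102 to 105 CPM), and Cnr1 is higher in inhibitory than in excitatory nuclei in every library.

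Arachidonic acid is the precursor of prostaglandins, and 18 genes of this branch were tested in the excitatory pool. None was called higher and 1 lower: Hpgd, the dehydrogenase that inactivates prostaglandins, at 4.06 CPM in WT and 2.13 in tKO, a log2 ratio of -0.93 (-1.25 to -0.61). Hpgds, the hematopoietic prostaglandin D synthase, had -0.56. Of 15 tested in the inhibitory pool, 1 was called higher, Ptgds (0.61), and 2 lower, Cbr1 (-0.64) and Ptges2 (-0.61). Ptgds was at 25.1, 38.3, 7.87 and 13.9 CPM in WT, tKO, aKO and nKO. Summed oligodendrocyte markers of this pool had the same order of libraries, at 148, 333, 38.3 and 49.8 CPM. Whether Ptgds came from such material was not tested. Over all genes 4.77% were called lower in the excitatory pool, and 5.33% higher and 5.34% lower in the inhibitory pool. The medians of the list were -0.07 and -0.17, beside -0.03 and -0.06 over all genes tested in the excitatory and inhibitory pools.

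Over all genes, 337 were called higher and 728 lower in the excitatory pool, and 680 and 682 in the inhibitory pool. From the 10th to the 90th percentile the log2 ratio spanned -0.39 to 0.25 among excitatory and -0.45 to 0.34 among inhibitory nuclei. A pool holds many neuron types, and its sum moves with their proportions. Nuclei of both libraries were therefore clustered within each pool, and the CPM of each cluster with at least 10 nuclei in both libraries was averaged with the WT share of UMIs as weight (36 of 38 excitatory and 23 of 28 inhibitory clusters). With makeup held in this way, 181 genes were called higher and 777 lower in the excitatory pool, and 251 and 613 in the inhibitory pool. With called doublets left out, the counts were 165 and 766, and 366 and 582. The calls of higher genes thus shrank by over 1.5 times under each, whereas the calls of lower genes stayed within 1.5 times. With makeup held over clusters of at least 50 nuclei, however, the inhibitory calls of lower genes numbered 421.

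Among named genes of at least 10 CPM in the higher library, the 12 with the highest excitatory ratios included genes of interneurons and of oligodendrocytes. Fign, a microtubule-severing ATPase, was counted at 3.53, 16.8, 3.63 and 1.75 CPM in WT, tKO, aKO and nKO, a log2 ratio of 2.25 (2.02 to 2.49) that was 1.34 with makeup held. Erbb4, the neuregulin receptor of interneurons, was at 18.2, 66.4, 15.5 and 7.41 CPM, 1.86 and 1.24 with makeup held. The tKO library stood above the other 3 for both. Sox6, a transcription factor of interneurons from the medial ganglionic eminence, had 1.37 and 0.80 with makeup held. Reln, the secreted glycoprotein of Cajal-Retzius cells and some interneurons, had 0.91 and 0.67. Kcnmb2, a subunit of calcium-activated potassium channels, was at 6.16, 15.7, 10.7 and 16.9 CPM, 1.35 and 0.62 with makeup held. WT was the lowest library for Kcnmb2, and nKO lay above tKO.

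Markers of several other cell types were called higher in the same pool, where 2.21% of all tested genes were called higher and 4.77% lower. Of 10 oligodendrocyte markers tested, 8 were called higher, 1 with makeup held, and their summed level was 242 CPM in WT, 320 in tKO, 165 in aKO and 164 in nKO, with no marker at 0. The median of 8 myelin genes moved from 0.81 to -1.07 when doublets were left out. Cajal-Retzius markers summed to 37.6, 71.9, 27.0 and 28.0 CPM, with 3 of 4 tested called higher. In the thalamic list 4 of 8 were called higher (Tcf7l2, Calb2, Synpo2 and Prkcd), in the parvalbumin list 3 of 6 (Erbb4, Btbd11 and Tac1), in the Vip list 2 of 3 (Vip and Calb2) and in the mossy cell list 2 of 6 (Drd2 and Calb2), with medians of 0.54, 0.64, 0.89 and 0.34 that were 0.10, 0.44, 0.49 and 0.12 with makeup held. Astrocyte markers summed to 530 CPM in WT and 484 in tKO with 0 of 7 called, microglial ones to 59.1 and 47.9 with 0 of 9 higher and 2 lower (P2ry12 and C1qb), and choroid plexus ones to 67.6 and 47.8 with 0 of 3 higher and 1 lower, Ttr, whose ratio of -0.79 was 0.07 without doublets. Prr5l, a binding partner of the kinase complex TORC2, had a ratio of 1.27 that was -0.79 without doublets. Calb2 is counted in the thalamic, Vip and mossy cell lists alike, so those counts are not independent. The share of these markers in the ratios of single genes was not tested beyond these values.

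**Figure D2:**
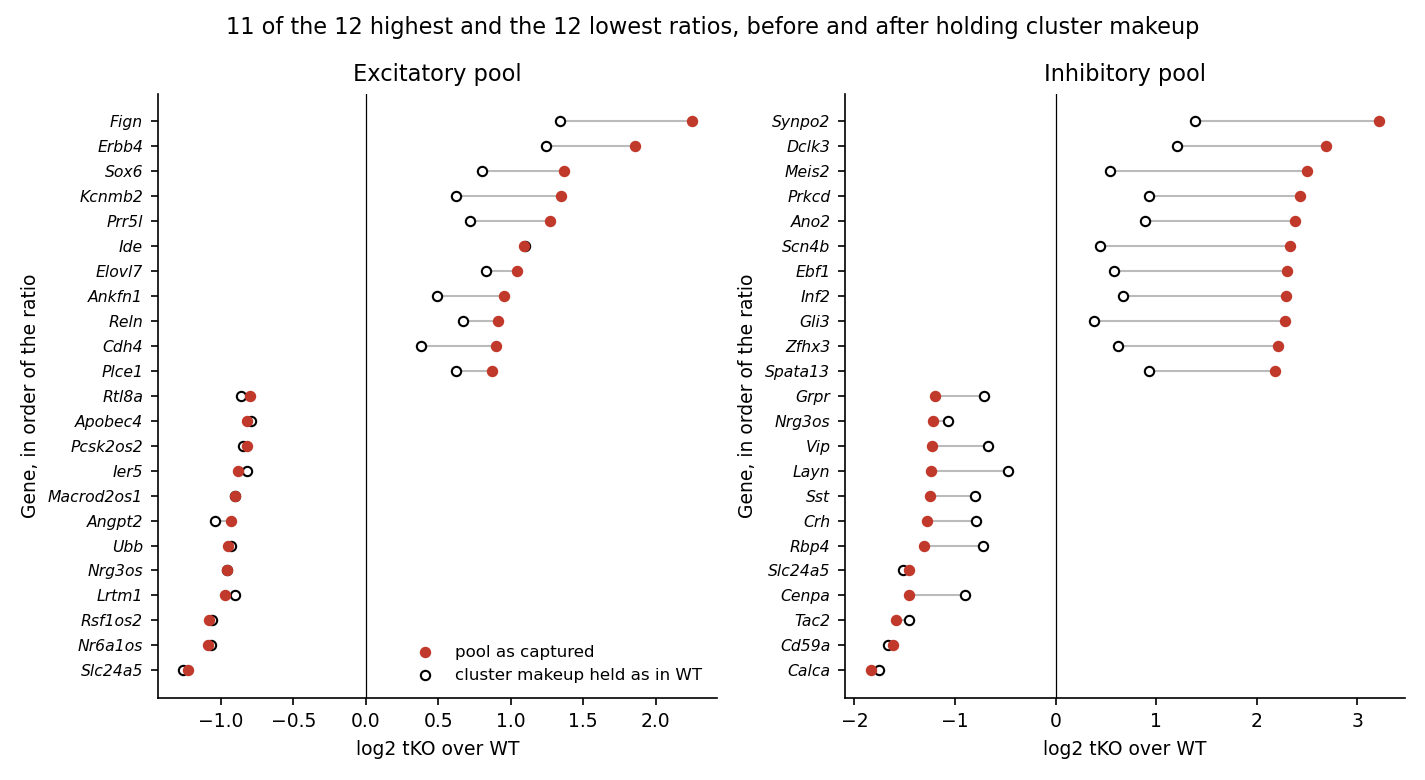
Log2 ratio of the tKO to the WT library (x axis) for 11 of the 12 named genes with the highest ratio and the 12 with the lowest, at 10 CPM or more in the higher library, in the excitatory (left) and inhibitory (right) pool, as captured (filled) and with cluster makeup held as in WT (open). The highest inhibitory ratios move toward 0 (Scn4b from 2.33 to 0.44), while the excitatory lowest ones hardly move (Slc24a5 from -1.23 to -1.26).

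In the inhibitory pool each of the 12 highest ratios under the same limit was nearer 0 with makeup held. Synpo2, an actin-binding protein and a member of the thalamic list, was counted at 1.44, 13.4, 0.972 and 0.749 CPM in WT, tKO, aKO and nKO, a log2 ratio of 3.22 (2.48 to 4.08) and 1.39 with makeup held. Meis2, a homeodomain factor of striatal and other ventral forebrain neurons, was at 47.9, 270, 123 and 76.3 CPM, 2.50 and 0.54. Ebf1, a transcription factor of the striatonigral lineage, had 2.30 and 0.58, and Scn4b, a sodium channel subunit of the same region, 2.33 and 0.44. Zfhx3, a zinc-finger homeodomain factor, was at 28.4, 132, 119 and 59.1 CPM, so that the aKO library was nearly as high as the tKO library, and its ratio of 2.21 was 0.62 with makeup held.

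Markers of 3 lists stood beside these genes, in a pool where 5.33% of all genes were called higher and 5.34% lower. Of 11 striatal medium spiny markers tested 9 were called higher, with a median of 1.69 that was 0.06 with makeup held, and a summed level of 1059, 1444, 1198 and 904 CPM in WT, tKO, aKO and nKO. All 6 genes of a list headed by Ebf1 and Six3 (with Isl1, Zic1, Meis2 and Foxp1) were called higher. They summed to 355, 814, 432 and 364 CPM, with a median of 1.93 that became 0.18. The list shares Isl1 with the striatal list and holds Ebf1 and Meis2, described above. It therefore does not separate a population of septum or geniculate from striatal neurons. Of 7 thalamic markers tested 4 were called higher and 1 lower, Calb2, with a median of 1.38 that stayed at 0.93. Their summed level differed less, at 1062, 1245, 1186 and 1046 CPM in WT, tKO, aKO and nKO. Synpo2 and Prkcd rested on 15 and 21 UMIs in WT, and Prkcd was at 10.8 CPM in tKO and 15.4 in aKO. No member of these lists was at 0 in either library. Nuclei with at least 2 UMIs over 4 core striatal genes (Drd1, Adora2a, Ppp1r1b and Rgs9) made 6.40% (4.95 to 8.12) of WT and 12.2% (11.1 to 13.4) of tKO inhibitory nuclei, against 2.23% in aKO and 4.23% in nKO. By the same rule they made 4.37% of WT and 2.92% of tKO excitatory nuclei. Oligodendrocyte markers summed to 148, 333, 38.3 and 49.8 CPM with all 10 called higher, and their median of 1.06 was 1.29 with makeup held.

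Neuropeptide genes of interneurons were lower in the tKO library. Of 12 tested in the inhibitory pool 8 were called lower and 2 higher, where 5.34% and 5.33% of all genes were, and the median was -0.87 (-0.70 with makeup held). With makeup held 7 of these 8 were still called lower, all but Cort, and Nts (neurotensin) was called lower as well. The list summed to 2549 CPM in WT, 1225 in tKO, 1447 in aKO and 1822 in nKO, so that WT was the highest of the 4. Sst (somatostatin, the peptide of dendrite-targeting interneurons) was counted at 1403, 589, 789 and 1043 CPM, a log2 ratio of -1.25 (-1.29 to -1.22) and -0.80 with makeup held. Npy (neuropeptide Y) was at 336, 149, 223 and 206 CPM, -1.17 and -0.87. Vip (vasoactive intestinal peptide, of interneurons that target other interneurons) was at 218, 92.7, 48.2 and 98.8 CPM, -1.23 and -0.67. WT had the highest value of each of these 3 peptides, and for Vip the aKO library was lower than the tKO library. Sst and Vip, and Tac2, Crh and Cck described next, are short genes. They fall in the shortest of 5 bands of coding gene length in this pool (348 to 10696 bp). In that band 10.8% of genes were called lower, with a median of -0.23. The part of gene length in the peptide ratios was not tested.

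Tac2, Crh, Cort, Pnoc and Cck were the other peptides of the list called lower. Tac2, the neurokinin B precursor, was at 79.8, 26.6, 14.5 and 37.7 CPM, a log2 ratio of -1.59 (-1.73 to -1.44) and -1.46 with makeup held. Calca, the precursor of calcitonin gene-related peptide and no member of the list, was at 17.3, 4.84, 10.0 and 4.57 CPM, -1.84 and -1.76. Crh (corticotropin-releasing hormone) was at 21.1, 8.68, 7.00 and 10.6 CPM, -1.28 and -0.79. Cort (cortistatin) had -0.97 and -0.43, and Pnoc (the nociceptin precursor) -0.77 and -0.61. Cck (cholecystokinin), whose interneurons carry most CB1, was at 254, 162, 200 and 244 CPM, -0.65 and -0.74, and in excitatory nuclei, which also express it, at 384, 248, 337 and 333 CPM, -0.63 and -0.56. Penk and Pdyn, opioid precursors of striatal projection neurons among others, were the 2 called higher, at 0.61 and 0.70, and had -0.40 and 0.08 with makeup held. Marker lists of 5 interneuron types stood beside these peptides, some of which they hold. Of all genes in this pool 5.34% were called lower and 5.33% higher. In the Vip list 4 of 5 tested were called lower, namely Vip, Tac2, Crh and Calb2, and it summed to 339 CPM in WT and 143 in tKO. In the somatostatin list 3 of 5 were lower, Sst, Npy and Crhbp, and it summed to 2188 and 1098 CPM, most of which was Sst. In the Cck list 3 of 6 were lower, Cck, Cxcl14 and Htr3a, with sums of 5349 and 4863 CPM. The parvalbumin list had 1 of 6 lower, Pvalb (-0.99), and 1 higher, Rasgrp1, with sums of 12939 and 9847 CPM. The Lamp5 list had 0 of 7 lower and 1 higher, Sv2c, with sums of 1083 and 970 CPM. Medians of the Vip, somatostatin, Cck, parvalbumin and Lamp5 lists were -1.23, -0.62, -0.52, -0.37 and -0.36 as captured. With makeup held they were -0.67, -0.12, -0.21, 0.02 and -0.20 in that order, and 3, 2, 2, 1 and 0 members were called lower.

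Antisense genes, noncoding transcripts read from the strand opposite another gene, made up 327 of the 728 genes called lower in the excitatory pool. This set was taken from GENCODE M21 after the values were seen. In the excitatory pool 327 of 998 tested antisense genes (32.8%) were called lower and 5 (0.501%) higher, with a median log2 ratio of -0.39. Of 12846 protein-coding genes 2.07% were called lower, with a median of -0.02. Among inhibitory nuclei 183 of 537 antisense genes (34.1%) were lower and 20 higher, with a median of -0.35, against 3.64% lower and a median of -0.05 for 11416 coding genes. Holding makeup left the medians at -0.41 and -0.36, and over all alternatives they ran from -0.43 to -0.36 and from -0.38 to -0.29. All antisense genes together took 0.955% of excitatory UMIs in WT, 0.775% in tKO, 0.938% in aKO and 0.853% in nKO, and 1.07%, 0.875%, 1.03% and 0.974% of inhibitory ones, so tKO was the lowest library in both pools.

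**Figure D3:**
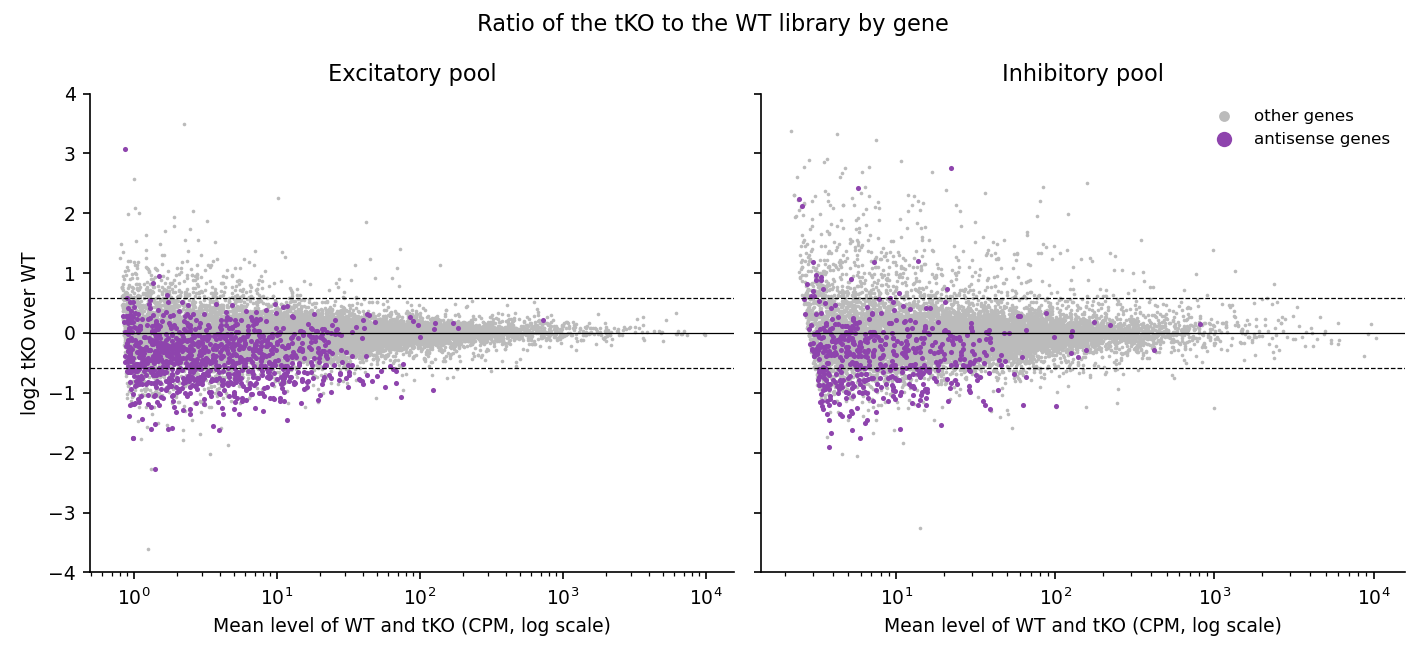
Log2 ratio of tKO to WT (y axis) against the mean level of both libraries in CPM (x axis, log scale) for each tested gene, antisense genes in purple and other genes in grey, Gm17167 left off. Dashed lines mark 1.5-fold. The antisense genes are shifted below 0, with medians of -0.39 (excitatory, left) and -0.35 (inhibitory, right).

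The coding genes on the other strand stayed close to WT. Among 904 excitatory pairs in which both genes were tested, the median was -0.43 for the antisense gene and 0.01 for its partner, the antisense gene had the lower ratio in 757, and 324 antisense genes but 10 partners were called lower. The 477 inhibitory pairs had medians of -0.38 and 0.00, with 175 antisense genes and 4 partners called lower. Nrg3os (chr14:38898302-38958794, + strand) lies within Nrg3 (chr14:38368952-39473088, - strand), a neuregulin that signals to ErbB4. Nrg3os was at 164, 84.5, 166 and 128 CPM in WT, tKO, aKO and nKO excitatory nuclei, a log2 ratio of -0.96 (-1.01 to -0.91), and Nrg3 at 6918, 6803, 7165 and 6883 CPM, a ratio of -0.02. The tKO library was the lowest of the 4 for the antisense gene, and no library stood apart for Nrg3. In inhibitory nuclei Nrg3os was at 141, 60.4, 113 and 98.5 CPM, -1.22 (-1.32 to -1.12).

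Further pairs with a synaptic or nuclear partner had the same form. 5031415H12Rik was at 17.4, 6.32, 19.5 and 15.2 CPM in excitatory nuclei, a log2 ratio of -1.46 (-1.63 to -1.29), inside Dlgap1, a scaffold of the postsynaptic density, at 0.10. Nr6a1os was at 14.2, 6.67, 16.5 and 11.4 CPM, -1.09, inside Nr6a1, an orphan nuclear receptor, at 0.01. Rsf1os2 had -1.08 and its partner Rsf1, a chromatin remodelling factor, -0.04. Macrod2os1 had -0.90 and Macrod2, an ADP-ribose hydrolase, 0.04, and Pcsk2os2 had -0.82 and Pcsk2, a prohormone convertase, -0.03. Not every abundant antisense gene was lower: Kcnq1ot1, the long RNA that silences an imprinted domain, was at 676 CPM in WT and 789 in tKO, a ratio of 0.22.

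The size of the difference followed the level of the partner. Antisense genes with a coding partner were ordered by the ratio of the partner's CPM to their own (UMI counts, not per length) and cut into 3 bands of equal number. Where the partner was up to 7.66 times as high, 8.83% of 317 excitatory antisense genes were called lower, with a median of -0.18. From 7.69 to 39.3 times it was 36.4% of 316 with a median of -0.43, and from 39.4 times upward 57.7% of 317 with a median of -0.65. The inhibitory pool gave 7.51%, 36.0% and 60.7%, with medians of -0.15, -0.40 and -0.69. Against the same WT library the aKO medians were -0.14, -0.13 and -0.10 over the excitatory bands, and the nKO medians were -0.11, -0.28 and -0.33. The 3 contrasts share their WT library. Position went with this order: of antisense genes wholly inside the partner 52.2% of 492 excitatory and 52.4% of 248 inhibitory ones were lower, of those overlapping it in part 15.1% of 458 and 18.5% of 270, and of those without a coding gene opposite 2.08% of 48 and 15.8% of 19. Whether the counting used strand is not stated, so reads of an antisense gene and of its partner may not be told apart.

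**Figure D4:**
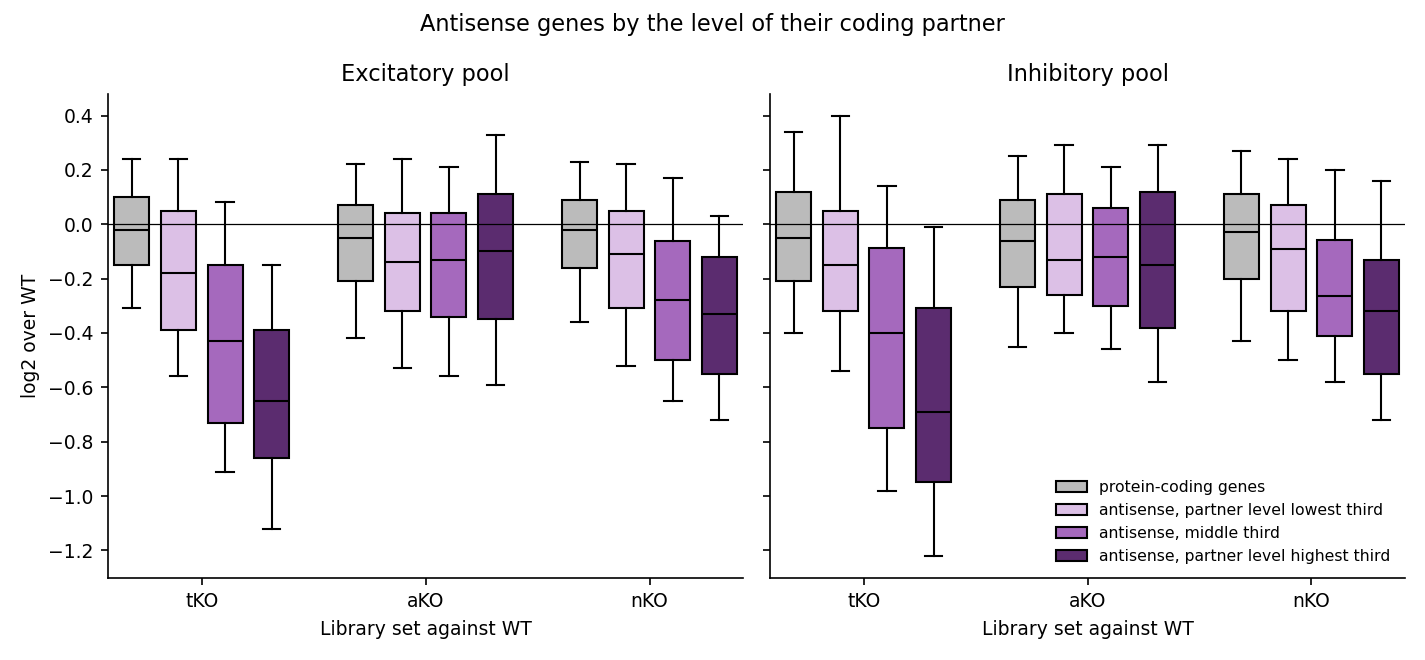
Log2 ratios over WT of the tKO, aKO and nKO libraries for protein-coding genes (grey) and for antisense genes in 3 bands of the partner's level over their own (light to dark purple), in the excitatory (left) and inhibitory (right) pool. Boxes are quartiles with the median and whiskers run from the 10th to the 90th percentile; the tKO medians step from -0.18 to -0.65 and from -0.15 to -0.69.

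Protein-coding genes in the same position were called lower more often than those with no coding gene opposite, though most were not called. This comparison was made after the antisense result was seen. Of 206 coding genes that lie wholly inside a coding gene of the other strand 22.3% were called lower in the excitatory pool, against 1.56% of 10266 with no coding gene opposite. Where the other gene was at least 10 times as high the share was 45.3% of 86 with a median of -0.50, and where it was less 5.83% of 120 with a median of -0.12. The inhibitory pool gave 43.9% of 41 and 14.4% of 104. Of 70 genes wholly inside a coding gene of the same strand 5.71% were lower. Of the 7 protein-coding genes among the 12 lowest excitatory ratios, 3 lie in this position: Lrtm1 (-0.97) inside Cacna2d3, a calcium channel subunit (-0.10); Angpt2 (-0.93), an angiopoietin, inside Mcph1 (-0.03); and Apobec4 (-0.82) inside Rgl1 (0.01). Gpr18 lies so inside Ubac2 (-0.17), and Angptl2, lower in both pools at -0.80 and -1.02, inside Ralgps1 (0.07 and 0.03). Slc24a5 has 19.7% of its length over Myef2.

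A few genes differed alike in both pools. Ide, the insulin-degrading enzyme that also cleaves amyloid beta, was counted at 44.6 CPM in WT, 94.9 in tKO, 76.0 in aKO and 92.8 in nKO excitatory nuclei, a log2 ratio of 1.09 (1.02 to 1.16) and 1.10 with makeup held. In inhibitory nuclei it was at 58.5, 107, 89.4 and 110 CPM, 0.86 and 0.96. WT was thus the lowest library in both pools, and the tKO value lay beside the nKO value. Slc24a5, a potassium-dependent sodium and calcium exchanger known from pigment cells, was lower at 21.9, 9.37, 28.7 and 30.8 CPM, -1.23 (-1.37 to -1.08), and in inhibitory nuclei at 25.3, 9.20, 28.0 and 33.7 CPM, -1.46 (-1.72 to -1.20), with tKO the lowest library in both. Myef2 opposite it had -0.12 in the excitatory pool.

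Ubb, Hspa8 and Hsp90ab1 were called lower in both pools, and each was below WT in all 3 knockout libraries. Ubb, a polyubiquitin gene, was at 100, 51.7, 76.0 and 65.1 CPM in excitatory nuclei, a log2 ratio of -0.95 (-1.02 to -0.89), and at 137, 69.4, 97.7 and 85.9 CPM in inhibitory nuclei, -0.98. Among male nuclei alone it had -0.68 and -0.65. Hspa8, the constitutive HSC70 chaperone, was at 195, 115, 93.3 and 94.0 CPM, -0.76 (-0.81 to -0.72), and at 326, 171, 165 and 155 CPM, -0.93. Hsp90ab1, the constitutive HSP90, was at 218, 144, 121 and 110 CPM, -0.60, and at 288, 187, 158 and 140 CPM, -0.62. Among male nuclei alone Hspa8 had -0.62 and -0.71, and Hsp90ab1 had -0.41 in the excitatory pool. Of 13 heat shock genes tested 3 were called lower in the excitatory pool, the third being the inducible Hspa1a, and of 12 tested 2 in the inhibitory pool, with 0 higher in either and medians of -0.25 and -0.32, where 4.77% and 5.34% of all genes were called lower. With makeup held 2 and 1 were called lower, Hsp90ab1 falling short at -0.57 and -0.58. The aKO and nKO medians over the same WT library were -0.48 and -0.48 in the excitatory pool. Ubb, Hspa8 and Hsp90ab1 fall in the shortest of 5 bands of coding gene length. That band had 4.67% called lower and a median of -0.16 in the excitatory pool, and 10.8% and -0.23 in the inhibitory pool. The part of gene length in these ratios was not tested.

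Gabra2, the alpha2 subunit of GABA-A receptors found at the axon initial segment and in the limbic system, was higher. It stood at 517 CPM in WT, 744 in tKO, 752 in aKO and 691 in nKO excitatory nuclei, a log2 ratio of 0.52 (0.50 to 0.55), just short of 1.5-fold. In inhibitory nuclei it stood at 204, 409, 349 and 310 CPM, 1.01 (0.94 to 1.07) and 0.55 with makeup held. WT was the lowest library in each pool. Gabra2 had the highest excitatory ratio of 12 GABA-A receptor genes tested, of which 0 were called and the median was 0.08. In the inhibitory pool 2 of 12 were called higher, where 5.33% of all genes were, with a median of 0.25. Gabrg1 lay above Gabra2 there, at 18.1, 42.0, 49.2 and 39.9 CPM, a log2 ratio of 1.22. With makeup held Gabrg1 had 0.75 and was the 1 still called.

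These ratios were also taken within each cluster, where makeup varies less than over the whole pool. Clusters share their libraries and are not replicates. The summed antisense genes had a ratio below 0, with the counting interval below 0, in 36 of 36 excitatory clusters (-0.39 to -0.21) and 23 of 23 inhibitory ones (-0.32 to -0.17). Ide lay above 0 in all 36 and 23, with the interval above 0 in 35 and 17. Hspa8 lay below 0 in all, with the interval below 0 in 31 and 20, and Ubb likewise in 32 and 17. Gabra2 had an interval above 0 in 32 of 36 and 15 of 23 clusters, and below 0 in 1 inhibitory cluster. Mgll was more uneven. It lay below 0 in 30 of 36 excitatory clusters, with the interval below 0 in 14. The interval lay above 0 in 1 excitatory cluster, from 0 UMIs in WT and 10 in tKO. Mgll lay below 0 in 13 of 23 inhibitory clusters, with the interval below 0 in 2 and above 0 in 1.

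**Figure D5:**
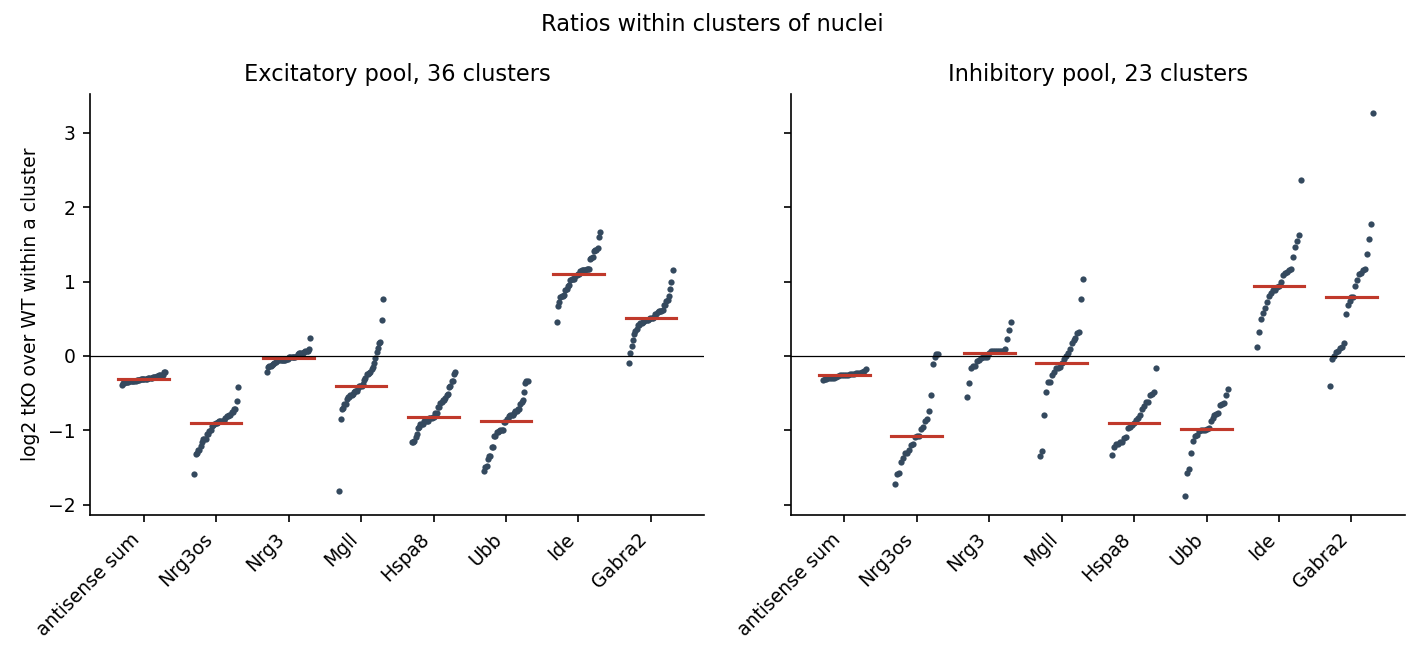
Log2 ratio of tKO to WT (y axis) in each cluster with at least 10 nuclei in both libraries, for the summed antisense genes and 7 genes, in the excitatory (left, 36 clusters) and inhibitory (right, 23 clusters) pool; points are clusters and red bars their medians. The antisense sum lies below 0 in every cluster, Ide lies above 0 in every cluster, and Nrg3 scatters around 0.

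Genes that follow neuronal activity were mixed. Of 20 immediate early genes tested in the excitatory pool 0 were called higher and 2 lower, Ier5 and Egr2, with a median of -0.18, where 4.77% of all genes were called lower. Egr2 rested on 56 and 52 UMIs, and its ratio of -0.60 was -0.51 with makeup held and 0.00 after thinning to 1000 UMIs a nucleus. Ier5 was at 12.3, 6.67, 7.35 and 7.33 CPM, -0.88 (-1.06 to -0.70), and WT was the highest library. Npas4, an activity-dependent transcription factor, was at 12.6, 16.8, 8.59 and 21.6 CPM, 0.41. In the inhibitory pool 5 of 16 were called higher (Arc, Egr1, Egr3, Npas4 and Nr4a2), with a median of 0.32 that was 0.09 with makeup held. As captured 5.33% of all genes were called higher there. With makeup held 2 of the 16 were called higher, Egr1 and Npas4, and 1 lower, Egr4, and Egr3 had -0.02. Of all genes 1.98% were then called higher and 4.84% lower. Nr4a2 was -1.48 without nuclei holding 3 or more UMIs of the striatal list, a setting that leaves 133 of 984 WT and 727 of 3364 tKO nuclei. Arc, a synaptic regulator, had the highest of these ratios, 1.71, and 0.58 with makeup held. Of all coding genes tested 55.1% lay below 0 in the excitatory and 58.5% in the inhibitory pool. The excitatory median over all genes tested was -0.03. Of 14 slower activity-regulated genes 13 had ratios below 0 in the excitatory pool, with a median of -0.32, and 1 was called lower. That gene, Baz1a, a subunit of chromatin remodelling complexes, was at 3.39, 0.986, 1.05 and 0.970 CPM, -1.78 (-2.21 to -1.36), so that WT stood above all 3 knockout libraries. Homer1, a postsynaptic scaffold with an activity-induced short form, was at 551, 393, 353 and 541 CPM, -0.49 (-0.51 to -0.46), low in tKO and aKO but not in nKO. In the inhibitory pool 7 of the 14 lay below 0, with a median of 0.01, 2 called higher, Baz1a (2.78) and Bdnf (1.01), and 1 lower, Scg2. Bdnf, a neurotrophin, had -0.38 there with makeup held. Scg2, a secretogranin, had -0.48 in excitatory and -0.60 in inhibitory nuclei.

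Of 3 glutamate receptor lists 1 gene was called in excitatory nuclei, where 2.21% of all genes were called higher and 4.77% lower. The median was 0.07 over 16 AMPA receptor and auxiliary genes, 0.20 over 5 NMDA receptor genes and 0.09 over 14 kainate and metabotropic receptor genes, with 1 called higher, Cacng4, an auxiliary subunit of AMPA receptors (2.28 and 5.38 CPM, 1.24, and 0.70 with makeup held). Grin2a and Grin2b, the main NMDA receptor subunits of the forebrain, had -0.05 and -0.02. Cnih2, the cornichon that slows AMPA receptor gating, was at 40.2, 27.4, 45.7 and 41.9 CPM, -0.55 (-0.65 to -0.46), and -0.62 in inhibitory nuclei, and the tKO library was the lowest of the 4. In inhibitory nuclei 3 of 16 AMPA receptor and auxiliary genes were called higher (Nptx1 1.56, Gsg1l 0.96 and Cacng4 0.70) and 1 lower, Cnih2, with a median of 0.13, where 5.33% of all genes were called higher. With makeup held these 3 had 0.38, 0.31 and 0.39, and none was called. Of the 14 kainate and metabotropic genes 3 were higher there, the metabotropic receptors Grm2 (1.96), Grm3 (1.23) and Grm4 (0.86), with a median of 0.28 that was 0.07 with makeup held. Grm2 then had 1.13 and was still called, but it rested on 10 UMIs in WT and 94 in tKO (interval as captured 1.02 to 3.07). Grm3 then had 0.30 and Grm4 0.41, and 0 of 5 NMDA receptor genes were called. In excitatory nuclei postsynaptic scaffold genes had a median of 0.04 over 19 with 0 called, and vesicle release genes 0.09 over 27 with 1 called higher, Syt9, a synaptotagmin (0.68, and 0.30 with makeup held).

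Genes of oxidative phosphorylation and ribosomal proteins lay mostly below WT, by less than 1.5-fold for most. Of all coding genes tested 55.1% lay below 0 in the excitatory and 58.5% in the inhibitory pool, and of the shortest of 5 bands of gene length 73.4% and 76.1%. Of 76 oxidative phosphorylation genes tested in the excitatory pool 73 had ratios below 0 and 2, the complex I subunits Ndufs7 and Ndufs8, were called lower, with a median of -0.27. Of 77 in the inhibitory pool 74 lay below 0 and 14 were called lower, with a median of -0.41. Over all genes 4.77% were called lower in the excitatory and 5.34% in the inhibitory pool. With makeup held 9 of the 77 inhibitory genes were called lower, where 4.84% of all genes were. Of 76 cytosolic ribosomal protein genes 73 and 71 lay below 0, with medians of -0.22 and -0.23, and 0 and 1 (Rplp0) were called lower. The aKO and nKO medians over the same WT library were -0.33 and -0.49 for oxidative phosphorylation and -0.43 and -0.53 for ribosomal proteins in the excitatory pool. Gene length went with the ratio over all coding genes. The shortest of 5 equal bands of length (297 to 9835 bp) had a median of -0.16 and 4.67% called lower in the excitatory pool, and the longest 0.03 and 0.934%, and the corresponding bands of the inhibitory pool had -0.23 with 10.8%, and 0.05 with 1.40%.

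The highest ratio of all belonged to an unnamed gene model. Gm17167 (chr4:42206998-42235313, + strand, processed transcript) was counted at 0.265 CPM in WT, 61.4 in tKO, 0.109 in aKO and 23.7 in nKO excitatory nuclei, from 13 and 4231 UMIs in WT and tKO, a log2 ratio of 7.85 (7.08 to 8.76). In inhibitory nuclei it was at 0.0957, 37.8, 0.389 and 14.4 CPM, from 1 and 953 UMIs, 8.62 (6.14 to 13.93). The tKO and nKO libraries were thus high and the WT and aKO libraries near 0 in both pools. It lay above 0 in every cluster, with the interval above 0 in 36 of 36 and 22 of 23.

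Gm17167 belongs to a repeated family of chromosome 4, so its reads may be shared with copies, and the value is uncertain on that ground. Of the 4828 different 31-base words of its 5054-base transcript, at least 100 also occur in each of 19 other genes of GENCODE M21. Of these genes 3 are in both count files and were detected in WT or tKO excitatory nuclei. Gm3892, the nearest of these on the chromosome, had 11 UMIs in WT and 62 in tKO excitatory nuclei, and Gm12394 had 97 and 66. Over 676 bases the transcripts of Gm17167 and Gm3892 are 98.4% identical, with 11 differing bases. A stretch of 90 bases from GRCm38 (mm10), + strand, is shown to make the likeness visible, with the single differing base in capitals; the copies lie at chr4:42232789-42232878 and chr4:42089060-42089149.
Gm17167: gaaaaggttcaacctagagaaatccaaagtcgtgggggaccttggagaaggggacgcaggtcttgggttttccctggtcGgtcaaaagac
Gm3892: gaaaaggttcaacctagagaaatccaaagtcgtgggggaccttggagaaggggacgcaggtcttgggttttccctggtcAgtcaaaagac

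Genes around the targeted locus were counted apart. Within 10 megabases of Mgll 134 other genes were tested in the excitatory pool, of which 3 (2.24%) were called higher and 5 (3.73%) lower, near the 2.21% and 4.77% of all genes. Tacr1, the substance P receptor, had 1.19 and 0.70 with makeup held, Grip2, a glutamate receptor scaffold, 0.83, and Txnrd3 0.67. Gm4409 (-1.60), A730049H05Rik (-0.71), Ccdc142os, Gm765 and Mthfd2 (each -0.62) were the 5 called lower. Of 110 tested in the inhibitory pool 5 (4.55%) were higher and 3 (2.73%) lower, beside 5.33% and 5.34% of all genes. Mthfd2, a mitochondrial folate enzyme, was lower in both, at 11.1 and 7.21 CPM in WT and tKO excitatory nuclei and at 12.3 and 8.09 CPM in inhibitory ones.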

How the data were processed

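Nuclear RNA of 4 hippocampal libraries was counted, 1 per genotype. Per the submitters' processing notes Cell Ranger ARC 2.0.0 and the build mm10 were used; the authors deposited whole-number UMI counts per gene symbol and barcode with no normalization, and strand use is not stated. From these counts nuclei were pooled by the rule above, summed, and scaled to CPM over the 21301 genes in both files. Slc17a7, Gad1 and Gad2 entered no count of called genes. Positions and gene types came from GENCODE M21 (GRCm38, the mm10 build), in which 20877 of these symbols were found. Doublets were called with Scrublet in scanpy 1.11.5 at an expected 0.8% per 1000 barcodes, and clusters with Leiden (resolution 1, 2000 variable genes, 30 components, 15 neighbours, igraph 0.11.9) over both libraries within a pool, without sex genes, mitochondrial genes and Mgll. Python 3.11.15, numpy 2.4.6, scipy 1.17.1 and pandas 2.3.3 were used. Intervals were tried on simulated counts with counting error only, which bears on no difference between libraries.

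The members, gene lists and rules were chosen with earlier results of these data known. Named genes were, in each pool, the 12 highest and 12 lowest ratios among named genes of at least 10 CPM in the higher library, the 3 highest and lowest models, the 6 largest each way in both pools, the endocannabinoid genes, and 2 each way of every other list; genes described for their place or role beyond these, among them the antisense partners, coding genes inside others, further neuropeptides and neighbours of Mgll, were chosen after their values were seen. Some genes that the rule names are not reported here. Alternatives were another scaling, doublets left out, male nuclei only, nuclei thinned to 1000 UMIs or of 4000 to 10000 UMIs, a mitochondrial limit of 5%, stricter pools, striatal nuclei left out, makeup held, limits of 20 and 500 UMIs, and 2-fold. Makeup held with clusters of 10 nuclei and the core striatal rule were added after the data were seen.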

Additional observations from a re-analysis of the deposited data

Results flagged for a closer look

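Genes called in opposite directions in the 2 pools drew attention; the difference between pools was not tested. Vip had a log2 ratio of 2.58 in the excitatory pool, from 0.286 CPM in WT and 1.71 in tKO, and -1.23 in the inhibitory pool. Sst likewise had 0.95, from 1.82 and 3.50 CPM, and -1.25; with called doublets left out its excitatory ratio was 0.04. Baz1a had -1.78 in the excitatory and 2.78 in the inhibitory pool, the latter from 7 UMIs in WT, and it was 0.89 there with makeup held and -1.27 without nuclei holding 3 or more UMIs of the striatal list, which leaves 133 of 984 WT nuclei. Calb2, a calcium-binding protein, had 0.89 and -0.90. Apobec4, which lies inside Rgl1 on the other strand, had -0.82 and 0.64, and Rgl1 had 0.01 and 0.69. The antisense gene Gm10848 had -0.75 and 0.66, and -0.17 in the inhibitory pool with makeup held.

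Gm17167 was also counted in a library outside the main comparison: the nKO library held 23.7 CPM in the excitatory and 14.4 CPM in the inhibitory pool, against 0.265 and 0.0957 CPM in WT.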

How the results depend on the processing

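No paired analysis was possible because each genotype has 1 library, and no ratio has a replicate error, so a setting is read against counting error alone. Excitatory genes called higher (337) numbered 165 with doublets left out, 148 after thinning, 530 in nuclei of 4000 to 10000 UMIs, 190 with stricter pools, 163 and 181 with makeup held over clusters of at least 50 and 10 nuclei, 894 and 95 with limits of 20 and 500 UMIs, and 79 at 2-fold. Those called lower (728) numbered 260 after thinning, 1578 and 258 with the 2 limits, and 142 at 2-fold. Inhibitory genes called higher (680) numbered 366 without doublets, 289 after thinning, 282 with stricter pools, 319 without nuclei holding 3 or more UMIs of the striatal list, 142 and 251 with makeup held, 1472 and 249 with the 2 limits, and 299 at 2-fold. Those called lower (682) numbered 271 after thinning, 371 without those nuclei, 421 with makeup held over clusters of at least 50 nuclei, 1490 and 195 with the 2 limits, and 117 at 2-fold. Excitatory Mgll (-0.40) moved to -0.31 after thinning, -0.55 in nuclei of 4000 to 10000 UMIs, and -0.31 and -0.32 with makeup held. Inhibitory Mgll (-0.13) moved to 0.04 without doublets, 0.19 after thinning, 0.09 with stricter pools, and 0.01 and -0.03 with makeup held. Reversals were -1.07 for the excitatory myelin median, -0.79 for excitatory Prr5l, both without doublets, -0.25 for inhibitory Prr5l without doublets, -0.02 for excitatory Ankfn1 in nuclei of 4000 to 10000 UMIs, 0.00 for excitatory Egr2 after thinning, and, for excitatory Ttr, 0.07 without doublets, 1.71 in nuclei of that depth and 0.04 with makeup held over clusters of at least 50 nuclei. In the inhibitory pool Penk was -0.44 in nuclei of that depth, -0.02 with stricter pools, -1.19 without nuclei of the striatal list and -0.23 without core striatal nuclei, and -0.71 and -0.40 with makeup held. The rule of 3 UMIs over the striatal list takes 86.5% of WT and 78.4% of tKO inhibitory nuclei and 82.5% of WT excitatory ones, so it leaves 133 WT and 727 tKO inhibitory nuclei. Under it Scn4b was -0.42, Gli3 -0.01 (-0.80 without core striatal nuclei), Pdyn -0.01, Gm10848 -0.05 (-0.17 with makeup held), Nr4a2 -1.48, Bdnf -0.01 and Baz1a -1.27. With makeup held over clusters of at least 10 nuclei Egr3 was -0.02 and Bdnf -0.38, and over clusters of at least 50 nuclei Npas2 was -0.01. The cause of each reversal was not tested. Of the medians of 25 lists, 260 of 275 excitatory and 299 of 325 inhibitory values moved by less than 0.2 on the log2 scale. Of the values of 79 genes in each pool, 508 of 711 excitatory and 528 of 869 inhibitory ones stayed within the counting interval, 197 and 322 moved outside it in the same direction or uncalled, and 6 and 19 reversed. The tKO library held almost no female nuclei, was shallower and was richer in called doublets. Among male nuclei alone 490 genes were called higher and 625 lower in the excitatory pool and 721 and 589 in the inhibitory pool, and Mgll had -0.45 and -0.15. Preparation of a library and genotype cannot be told apart with 1 library each.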

Other observations

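The clock, glucocorticoid response and potassium channel lists had medians near 0 in excitatory nuclei, beside -0.03 over all genes tested there. Of 17 circadian clock genes 1 was called higher, Ciart, a repressor of the clock, at 3.73 CPM in WT and 5.95 in tKO (log2 ratio 0.67), with a median of 0.00, where 2.21% of all genes were called higher. In the inhibitory pool 3 of 17 were called higher, Per3 (0.97), Npas2 (0.80) and Hlf (0.74), with a median of 0.25 that was 0.07 with makeup held and 0 called. None of 12 glucocorticoid response genes was called in the excitatory pool, with a median of -0.06. Zbtb16, a zinc-finger target of the glucocorticoid receptor, had -0.37 there. In the inhibitory pool 1 of 10 was called higher, Klf9, where 5.33% of all genes were, with a median of 0.04. Klf9 had 0.71, and 0.21 with makeup held. Of 24 potassium channel genes 0 were called in the excitatory pool, with a median of 0.01. In the inhibitory pool 1 of 24 was called higher, Kcnn3 (0.92, and -0.11 with makeup held), with a median of 0.13. Transcripts of the mitochondrial genome summed to 353 CPM in WT and 335 in tKO excitatory nuclei, beside 225 in aKO and 74.7 in nKO. In inhibitory nuclei they summed to 596 CPM in WT, 468 in tKO, 321 in aKO and 133 in nKO.

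The lowest inhibitory ratio among gene models belonged to Gm49980, which is not listed in GENCODE M21 and has no place or type here. It was counted at 25.5 CPM in WT, 2.66 in tKO, 6.80 in aKO and 8.31 in nKO inhibitory nuclei, a log2 ratio of -3.26 (-3.67 to -2.87) and -3.38 with makeup held. In excitatory nuclei it stood at 5.49, 1.35, 3.04 and 3.34 CPM, a ratio of -2.02. WT was the highest library in both pools.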
